A study of Homo sapiens with 6 samples.

Results

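The genes described here are annotated genes named as readthrough genes, a class whose RNA runs from one gene into its downstream neighbour on the same strand. They were found by name: a row counted as a readthrough gene where its name is the names of 2 genes joined by a hyphen and both genes have rows of their own on the same chromosome and strand. Of 31016 rows in the table, 104 met this rule, with 204 rows for their partner genes and 101 separate loci. One name, ARMCX5-GPRASP2, has 2 rows, and at 3 loci more than 1 readthrough row shares a partner. By the table's coordinates 102 of the 104 rows overlap both partners. The exceptions are ENSG00000286237, one of the ARMCX5-GPRASP2 rows, which overlaps GPRASP2 and not ARMCX5, and PTGER4P2-CDK2AP2P2, which overlaps neither partner, so their names alone put them here.

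The study sequenced poly(A) RNA of DLD-1, a human colorectal adenocarcinoma epithelial cell line. Cells of the first group were given TGF-β, a growth factor that drives epithelial cells towards a mesenchymal state (TGFb, 3 libraries). Those of the second group also received TFA, a preparation of total flavones from Abelmoschus manihot, on top of the TGF-β (TGFb_TFA, 3 libraries). All results come from this 1 line. The labels give the libraries numbered 1, 2 and 3 treatment times of 24, 25 and 26 hours in both groups, and no group without TGF-β was analysed here. The comparison asked is how TGFb_TFA differs from TGFb, and nothing in the labels says that libraries came from separate cultures, so p-values measure only the spread between these libraries.

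Readthrough transcription is known from cells in which RNA polymerase passes the cleavage and polyadenylation site of the upstream gene and goes on into the next one. Splicing then usually joins a late exon of the upstream gene to the second exon of the downstream gene, which leaves out the upstream stop codon and the downstream promoter and first exon. Many such transcripts encode a fused protein, and others carry an early stop codon that marks them for nonsense-mediated decay, the pathway that degrades such RNA. Since their exons belong largely to the partners, a program that assigns reads to transcripts has few reads with which to tell a readthrough transcript from the partners.

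The gene structures showed how small the distinguishing part is. The upstream partner was the first-named one in 104 of 104 rows, and 95 pairs of partners lay apart, with a median gap of 5254 bases. By the table's transcript types 59 rows were protein coding, 34 nonsense-mediated decay and 11 noncoding. In GENCODE 29, which held 101 of the rows, a median of 96.3% of a readthrough gene's exon bases also lay in an exon of a partner, and 29 rows had no exon base of their own. Of their 1495 introns 335 occurred in neither partner, a median of 3 per row. Among 75 rows with a RefSeq promoter (GRCh38.p14) for both genes, 37 had the same 300 bases around the start as the upstream partner. Only the last-listed promoter of each gene was compared, and a gene can have several.

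A splice junction that joins the partners is what sets these RNAs apart, so 1 is shown for each row on which the results turn. It was taken from 1 transcript of the gene, a coding join being preferred, and other joins can exist. Introns found in neither partner numbered 5 for FAM47E-STBD1 and 1 for NME1-NME2. Each sequence is the reference mRNA across the join (GRCh38, GENCODE 29 exons), 24 bases from the upstream partner in lower case and 24 from the downstream partner in capitals. The lines follow the order in which the rows are described below.
FAM47E-STBD1: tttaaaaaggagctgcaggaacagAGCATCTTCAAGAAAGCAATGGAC
PKD1P6-NPIPP1: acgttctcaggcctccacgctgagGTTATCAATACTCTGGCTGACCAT
NME1-NME2: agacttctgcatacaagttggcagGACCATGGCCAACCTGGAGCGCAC
RPL17-C18orf32: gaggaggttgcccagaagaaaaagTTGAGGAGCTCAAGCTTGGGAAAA
RPS10-NUDT3: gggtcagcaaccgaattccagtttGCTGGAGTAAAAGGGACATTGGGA
RPL36A-HNRNPH2: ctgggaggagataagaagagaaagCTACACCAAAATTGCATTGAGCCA
ATP6V1G2-DDX39B: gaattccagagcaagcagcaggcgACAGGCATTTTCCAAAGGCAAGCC
BLOC1S5-TXNDC5: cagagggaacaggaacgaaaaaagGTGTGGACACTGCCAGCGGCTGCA
HNRNPUL2-BSCL2: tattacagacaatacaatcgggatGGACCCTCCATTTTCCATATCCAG
ISY1-RAB43: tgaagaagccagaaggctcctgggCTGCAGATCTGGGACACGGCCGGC
Only reads that cover such a join, or bases in neither partner, belong to the readthrough gene alone. How many reads did so cannot be told from the deposited table, which gives 1 estimated count and 1 FPKM value (fragments per kilobase of transcript, scaled to the library's total) per gene and library.

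Library totals were 60361756 to 68745953 estimated counts, of which the 104 readthrough rows held 0.0885% to 0.109%. Within the 101 loci they held 6.97% to 8.46% of the counts. TGFb_TFA 3 stood apart from the others: over all genes its chi-square per degree of freedom was 51.9 and 53.4 against the other TGFb_TFA libraries, which differed from each other by 3.01 (counts divided by 4), and its TMM scaling factor was 0.895 against 0.993 to 1.04 elsewhere. Where leaving it out moved the log2 fold change of a readthrough row described below by over 1.5 times, that value is given too. Values of partners, sums and other genes come from all libraries unless stated, and some of them also rest on TGFb_TFA 3. Of the colon epithelial markers EPCAM, KRT8, KRT18, KRT19, KRT20, CDX2, VIL1, CDH1, CEACAM5 and LGALS4, 9 of 10 passed the count filter, with a summed level of 1400 to 1798 FPKM per library. LGALS4 lay at 0.17 FPKM or less in every library. Fibroblast markers (5 of 8 tested) summed to 0.0524 to 0.355 FPKM in TGFb and 0.373 to 2.34 FPKM in TGFb_TFA, endothelial ones (4 of 6) to at most 0.548 FPKM and haematopoietic ones (2 of 7) to at most 0.697 FPKM, with none of the listed genes in the table at 0 in all libraries. The part of the fibroblast markers in the results below was not tested, nor whether any fibroblasts were present beside this epithelial line. In bulk RNA a change in the share of a cell type and in RNA per cell cannot be told apart.

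Across the readthrough rows, none differed between the groups past the threshold. An estimated count test in edgeR (quasi-likelihood, Benjamini-Hochberg adjustment) was possible for 76 of the 104 rows, and 0 of the 76 were called at an adjusted p under 0.05, where 0.0109% of all 18265 tested genes were. In DESeq2 0 of 90 rows were called, beside 0.0702% of all genes. At an unadjusted p under 0.05 in edgeR, 3 of the 76 rows passed (2 higher and 1 lower with TFA), against 1.83% of all genes. Groups did not overlap in CPM (counts scaled to the TMM-adjusted library total) in 4 of the 76 rows, 1 higher and 3 lower, against 7.91% of all genes. The 28 rows that did not pass edgeR's filter on low counts enter none of the figures for the 76 rows, though some of them are among the 90 in DESeq2. Of the 28, 26 were listed at 0 in at least 1 library.

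Summing each readthrough row with its partners gave 100 loci that could be tested. Of these 0 were called, where 0.00552% of the table with summed loci was, and 2 passed an unadjusted p under 0.05, where 1.84% did. Groups did not overlap at 7 loci, against 7.83% of that table. The locus with the lowest unadjusted p was C1QTNF3-AMACR, where nearly all counts belonged to AMACR, an enzyme of branched-chain fatty acid and bile acid metabolism: its sum was 41.9, 40.8 and 41.0 CPM in TGFb and 31.5, 33.1 and 31.4 CPM in TGFb_TFA (log2 fold change -0.36, SE 0.11, unadjusted p = 0.0124 in edgeR, not called). The other was ZNF670-ZNF695, a pair of zinc finger genes, with a sum of 39.2, 35.01 and 31.2 CPM in TGFb and 44.9, 41.5 and 45.2 CPM in TGFb_TFA (0.32, SE 0.13, not called).

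The readthrough rows had larger fitted differences than their partners, and the sums had smaller ones. The median size of the log2 fold change was 0.38 for the 76 readthrough rows, 0.16 for 181 partner rows, 0.12 for the 100 sums and 0.16 for all tested genes. These classes also differed in level, with a median mean CPM of 2.26, 18.5, 41.9 and 8.75 in the same order. Sizes were not compared at equal level, so the part of level in this order was not tested. A log2 fold change of at least 1 in size was fitted for 13 readthrough rows, 3 partners and 0 sums, and for 4.86% of all genes. No direction was shared: 41 of 76 readthrough rows lay above 0, with a median of 0.07 beside 0.01 for all genes. That median was -0.10 without TGFb_TFA 3 and lay below 0 in 8 of 16 alternative fits in all.

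**Figure D1:**
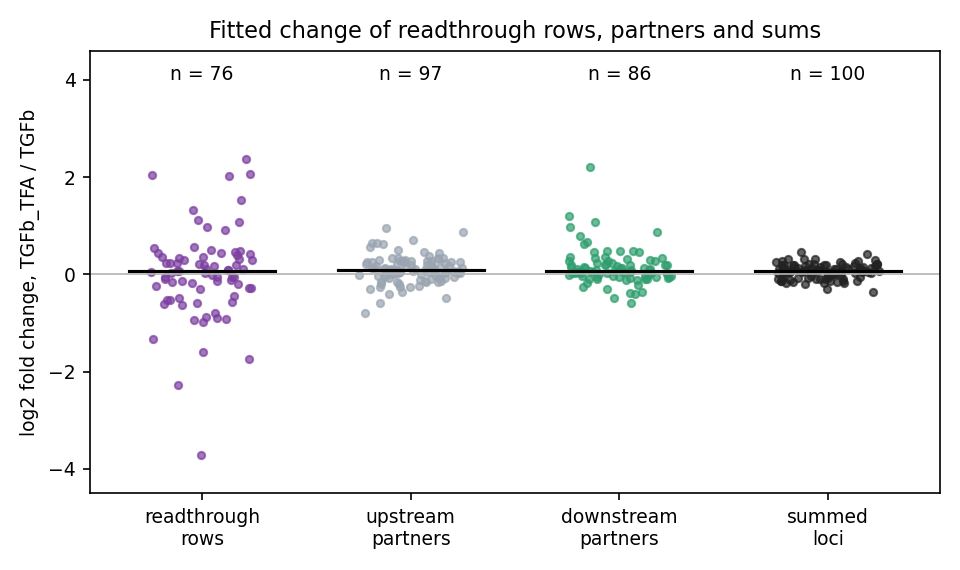
Log2 fold change (TGFb_TFA over TGFb, edgeR) of each tested readthrough row, upstream partner, downstream partner and summed locus, with a black line at the median of each class. The 76 readthrough rows reach from -3.71 to 2.37, while none of the 100 summed loci reaches a size of 1.

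FAM47E-STBD1 had the lowest unadjusted p of the 76 rows and was low in the libraries where its partners' rows were high. Whether reads were assigned differently or the RNAs themselves differed cannot be told apart from the table. It joins FAM47E to STBD1, whose protein binds glycogen and takes part in carrying it to lysosomes. FAM47E-STBD1 (ENSG00000272414) lies on chromosome 4, from 76251721 to 76311120 on the plus strand in the table's GRCh38 coordinates, and starts inside FAM47E. That start is shared: a RefSeq promoter of FAM47E has the same 300 bases (76251471 to 76251770) as that of FAM47E-STBD1. Another FAM47E promoter lies further upstream. The reference transcript with 7 exons joins the exon of FAM47E that ends at 76278224 to the last exon of STBD1, which starts at 76309144, and skips the first exon of STBD1. In that exon it keeps 27 coding bases before the stop codon, so its coding sequence leaves out nearly all of STBD1.

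In CPM, FAM47E-STBD1 was 35.9, 39.2 and 28.4 in TGFb 1 to 3 and 4.77, 0.18 and 2.96 in TGFb_TFA 1 to 3. STBD1 was 8.52, 7.11 and 10.4 CPM in TGFb and 36.0, 40.0 and 43.8 CPM in TGFb_TFA. FAM47E was 8.34, 8.48 and 10.5 CPM in TGFb and 13.7, 16.6 and 20.1 CPM in TGFb_TFA. In each of the 3 rows the groups did not overlap, the readthrough row being low and both partners high in the TGFb_TFA libraries. The sum over the locus was 52.7, 54.8 and 49.3 CPM in TGFb and 54.5, 56.7 and 66.9 CPM in TGFb_TFA, and there the groups overlapped.

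The fitted log2 fold change of FAM47E-STBD1 was -3.71 (SE 0.84, 95% interval -5.67 to -1.75, adjusted p = 0.9997 in edgeR, not called). STBD1 had 2.20 (SE 0.18, interval 1.79 to 2.62) and was called higher (adjusted p = 0.0255 in edgeR), and it was the only partner row called of 181. This call was lost with the replicate number as a block (adjusted p = 0.315 in edgeR) and without any 1 of TGFb 1, TGFb 2, TGFb 3, TGFb_TFA 1 or TGFb_TFA 2 (adjusted p from 0.0642 to 0.237). It held without TGFb_TFA 3 alone, and was lost without TGFb 1 and TGFb_TFA 3 together. FAM47E had 0.88 (SE 0.19, not called). The sum had 0.18 (SE 0.13, interval -0.13 to 0.49, not called), and 0.09 without TGFb_TFA 3. The difference for STBD1 alone is thus given here beside a sum whose interval includes 0.

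The readthrough row held 68.0%, 71.5% and 57.6% of the 3 rows' counts in TGFb 1 to 3 and 8.75%, 0.326% and 4.43% in TGFb_TFA 1 to 3. The mean share went from 65.7% ± 7.27 to 4.50% ± 4.21 (SD, n = 3 each; exact permutation test, 2-sided p = 0.10, the smallest that 3 libraries against 3 can give). On FPKM, which is per length, the share was 74.99% ± 6.39 and 5.69% ± 5.26. Its ratio to STBD1 differed by -6.05 on the log2 scale (SE 0.79) and its ratio to FAM47E by -4.74 (SE 0.79), with adjusted p = 0.198 and 0.369 in limma over all 1426 overlapping same-strand pairs of tested genes. These were the lowest 2 p-values among the 135 pairs of a readthrough row and a partner.

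**Figure D2:**
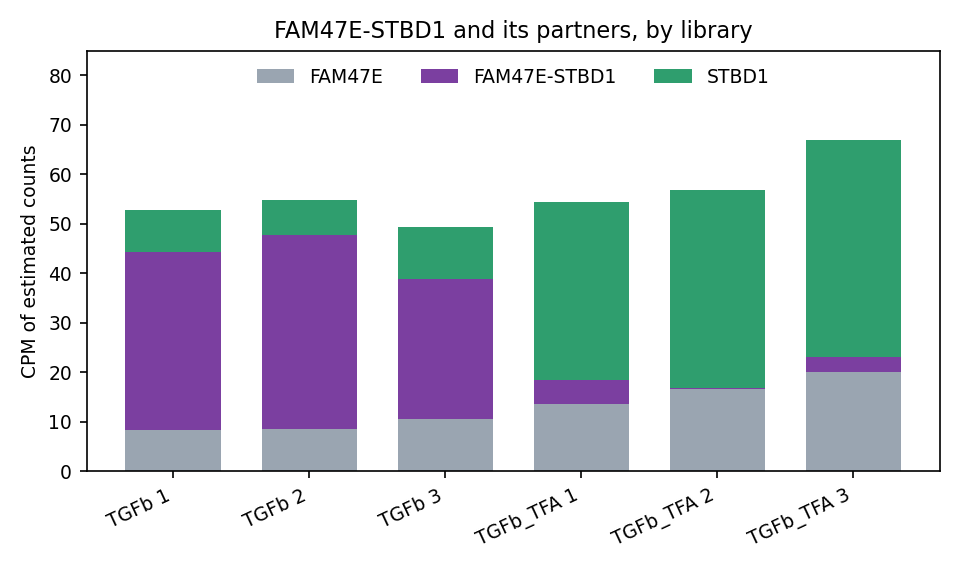
Estimated counts in CPM of FAM47E, FAM47E-STBD1 and STBD1, stacked, in each of the 6 libraries. The readthrough row fills most of each bar in the TGFb libraries (57.6% to 71.5%) and at most 8.75% in the TGFb_TFA libraries, while the bars' heights run from 49.3 to 66.9 CPM.

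Over all pairs of a readthrough row and a partner, the ratio test gave no call. Of 135 such pairs 0 were called in limma, where 0% of all 1426 pairs were, and 5 passed an unadjusted p under 0.05, where 4.28% of all pairs did. Groups did not overlap in the ratio for 9 of the 135 pairs, against 9.47% of all pairs. Row and partner had fitted log2 fold changes of opposite sign in 56.3% of the 135 pairs and in 48.7% of the 1291 other overlapping pairs. Within groups, the row and its partner deviated from their group means in opposite directions in at least 5 of 6 libraries in 23.7% of the 135 pairs and in 16.4% of the others.

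Shares that did not overlap between groups were found at 4 of the 76 tested rows, 3 of them lower in TGFb_TFA, and nothing is read from that count beside the 9.47% of all overlapping pairs whose ratios did not overlap. FAM47E-STBD1 is one of the 4. PKD1P6-NPIPP1 (ENSG00000270580, chromosome 16, 15104723 to 15131601, minus strand), a noncoding join of a pseudogene of the polycystin gene PKD1 and one of the nuclear pore interacting protein family, was the one that lay higher. Its share was 13.7%, 15.5% and 21.3% in TGFb and 49.9%, 36.6% and 23.3% in TGFb_TFA, at only 0.60 to 2.73 CPM. Both partners have near-identical copies on chromosome 16, so the assignment of its reads is uncertain, and in FPKM shares the groups overlapped. Its log2 fold change was 1.13 (SE 0.44), that of PKD1P6 was -0.58 (SE 0.23), and the sum had -0.02 (SE 0.19), none of them called.

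The second ARMCX5-GPRASP2 row (ENSG00000286237, chromosome X, 102712495 to 102753530, plus strand) bears the names of an armadillo repeat gene and of a gene for a sorting protein of G-protein-coupled receptors, and lies over the latter alone. It held 28.9%, 13.9% and 12.01% of the 3 rows' counts in TGFb and 0.524%, 8.58% and 7.08% in TGFb_TFA, each TGFb_TFA value lying below all TGFb values. Its level was low, with a mean of 3.14 CPM and a within-group SD of 1.02 in log2(CPM + 0.5). GPRASP2 had a mean of 1.92 CPM and ARMCX5, which the row does not overlap, 20.7 CPM. Log2 fold changes were -1.74 for the ENSG00000286237 row and 1.21 for GPRASP2, neither called. TLCD4-RWDD3 (ENSG00000271092, chromosome 1, 95117923 to 95247225, plus strand) held 5.10%, 8.13% and 5.08% against 4.04%, 3.73% and 4.202%. RWDD3 encodes an enhancer of SUMO conjugation, and TLCD4 a membrane protein with a TLC domain. The row's level was 2.09, 2.66 and 1.81 CPM in TGFb and 1.48, 1.43 and 1.74 CPM in TGFb_TFA (log2 fold change -0.49, SE 0.25, not called), and neither partner's groups were apart. The sums of both loci had log2 fold changes of 0.02 (SE 0.17) and 0.09 (SE 0.14).

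**Figure D3:**
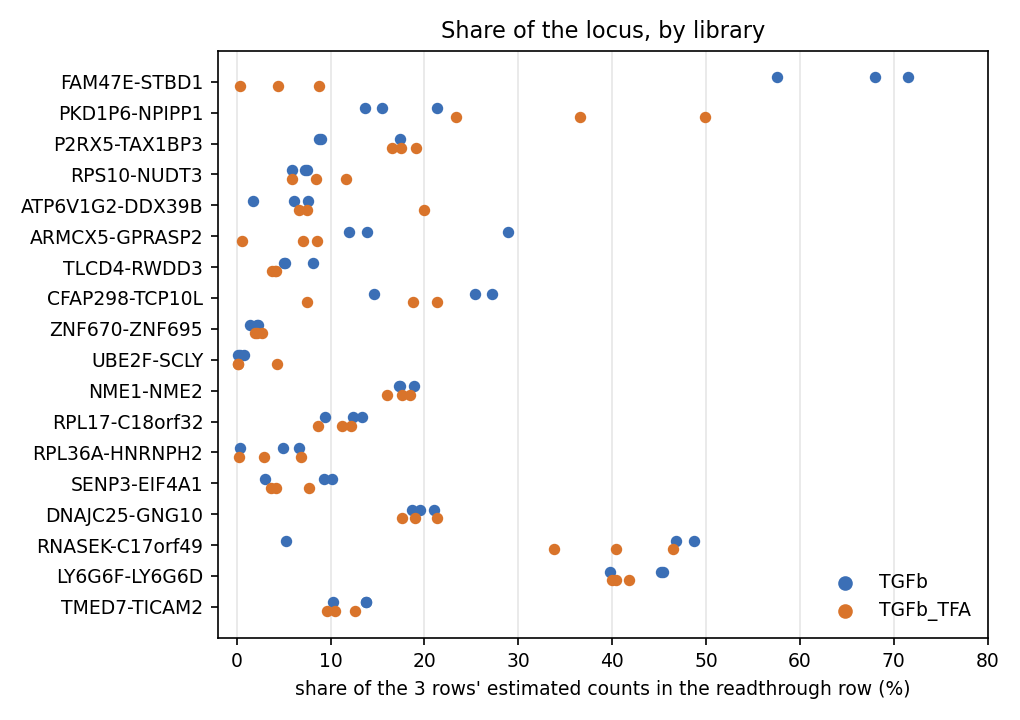
Share of the summed estimated counts of a readthrough row and its 2 partners that lies in the readthrough row, in percent, for the 18 rows named by the rule (1 point per library; the ARMCX5-GPRASP2 row shown is ENSG00000286237). FAM47E-STBD1 has the widest gap between the groups, and the shares of NME1-NME2 and DNAJC25-GNG10 stay between 16.02% and 21.3% in all libraries.

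Of the other rows with the lowest unadjusted p, 4 lay at 15.5 CPM or less in all libraries. P2RX5-TAX1BP3 (nonsense-mediated decay type, chromosome 17) joins an ATP-gated ion channel to a PDZ protein and was 6.31, 3.79 and 3.90 CPM in TGFb and 6.30, 6.81 and 7.39 CPM in TGFb_TFA (log2 fold change 0.55, SE 0.24, unadjusted p = 0.0495 in edgeR, not called). P2RX5 had -0.29 (SE 0.28) and TAX1BP3 had -0.18 (SE 0.13). The groups overlapped in all 3, since TGFb 1 had nearly the level of the TGFb_TFA libraries. CFAP298-TCP10L, on chromosome 21, joins a gene of ciliary motility to TCP10L, which was at 0.14 CPM or less in every library. The row was 15.5, 9.37 and 13.2 CPM in TGFb and 11.3, 9.43 and 4.43 CPM in TGFb_TFA (-0.59, SE 0.35, not called). Without TGFb_TFA 3, its lowest library, the value was -0.29.

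ZNF670-ZNF695 (ENSG00000135747, nonsense-mediated decay type, chromosome 1) lay at 0.57, 0.79 and 0.66 CPM in TGFb and 1.21, 0.80 and 0.98 CPM in TGFb_TFA (0.56, SE 0.34, not called). Its partners had 0.33 (SE 0.14) for ZNF670 and 0.28 (SE 0.14) for ZNF695, neither called, with groups that did not overlap in any of the 3 rows. UBE2F-SCLY joins a NEDD8-conjugating enzyme to selenocysteine lyase. It was 0.06, 0.17 and 0.39 CPM in TGFb and 2.35, 0.11 and 0.09 CPM in TGFb_TFA, where 1 library set the fitted value of 2.05 (SE 1.299, not called). Without TGFb_TFA 1 the value was -1.001.

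Per length, levels of readthrough rows lay on either side of those of their partners. Over the 76 tested rows the mean FPKM of the 6 libraries ran from 0.0326 to 122 with a median of 0.563, and 30 rows reached 1 FPKM. The mean FPKM was below both partners in 34 rows, above the upstream partner in 14, above the downstream partner in 33 and above both in 5. The median share of the locus counts was 9.81% in TGFb and 6.14% in TGFb_TFA, with 41 rows under 10% on average and 4 above 50%.

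The rows of highest mean FPKM are described next. NME1-NME2 (ENSG00000011052, chromosome 17, 51153590 to 51171744, plus strand) encodes a fusion of nucleoside diphosphate kinases, enzymes that balance the nucleoside triphosphate pools. It was 115, 135 and 102 FPKM in TGFb and 108, 100.02 and 171 FPKM in TGFb_TFA, with TGFb_TFA 3 the highest library. NME1 was 74.2 ± 12.8 FPKM in TGFb and 86.8 ± 27.0 FPKM in TGFb_TFA, and NME2 was 168 ± 28.8 and 177 ± 32.9 FPKM (SD, n = 3 each). The readthrough row's log2 fold change was 0.17 (SE 0.28) and without TGFb_TFA 3 it was -0.22, not called in either fit.

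RPL17-C18orf32 (ENSG00000215472, chromosome 18, minus strand) runs from a gene of the large ribosomal subunit into its neighbour. It was 103, 92.0 and 103 FPKM in TGFb and 100.2, 92.3 and 113 FPKM in TGFb_TFA, with 5 of the libraries between 92.0 and 103. Its log2 fold change was 0.08 (SE 0.16) and without TGFb_TFA 3 it was -0.09, not called in either fit. RPL17 itself was 463 ± 68.7 and 536 ± 163 FPKM, and C18orf32 only 3.69 ± 0.611 and 3.63 ± 0.835 FPKM (SD, n = 3). RPS10-NUDT3 (ENSG00000270800, chromosome 6, minus strand) joins a small-subunit ribosomal protein to a hydrolase of inositol pyrophosphates. The row was 75.6, 98.0 and 56.9 CPM in TGFb and 116, 87.9 and 115 CPM in TGFb_TFA, with TGFb 2 above TGFb_TFA 2 (log2 fold change 0.47, SE 0.22, not called), while RPS10 had 0.26 (SE 0.29). The sum over that locus was 1042, 1302 and 961 CPM in TGFb and 1002, 1045 and 1947 CPM in TGFb_TFA, highest in TGFb_TFA 3. Ribosomal protein genes have many processed pseudogenes and NME1 and NME2 resemble each other closely, so read assignment in these rows is uncertain.

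RPL36A-HNRNPH2 (ENSG00000257529, chromosome X, plus strand) joins a ribosomal protein gene to a splicing regulator and has no exon base of its own. It was 47.5, 38.0 and 2.32 CPM in TGFb and 47.8, 1.76 and 32.9 CPM in TGFb_TFA, so that each group held high and low libraries. RPL36A was 454 to 921 CPM and HNRNPH2 153 to 214 CPM over the same libraries. Its fitted difference was -0.09 (SE 1.17, interval -2.81 to 2.63), and -0.24 without TGFb_TFA 3. RNASEK-C17orf49 (chromosome 17), which starts at an endoribonuclease gene, was 26.8, 33.7 and 3.51 CPM in TGFb and 24.7, 20.8 and 36.5 CPM in TGFb_TFA. In the library where it was low, TGFb 3, both RNASEK (38.0 CPM) and C17orf49 (25.6 CPM) had their highest values. The row's log2 fold change was 0.36 (SE 0.67) and without TGFb_TFA 3 it was 0.09, not called in either fit.

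SENP3-EIF4A1 (ENSG00000277957, nonsense-mediated decay type, chromosome 17) joins a SUMO protease to the RNA helicase of translation initiation. It was 163, 60.9 and 171 CPM in TGFb and 68.6, 125 and 82.4 CPM in TGFb_TFA, and SENP3 was 37.8, 74.9 and 35.7 CPM and 60.5, 46.6 and 70.4 CPM. The 3 libraries in which the readthrough row was highest were the 3 in which SENP3 was lowest. The row's log2 fold change was -0.52 (SE 0.40) and that of SENP3 was 0.26 (SE 0.31), neither called. ATP6V1G2-DDX39B (ENSG00000254870, nonsense-mediated decay type, chromosome 6, minus strand) joins a proton pump subunit to a helicase of mRNA export. It was 36.1, 9.57 and 29.8 CPM in TGFb and 35.8, 31.1 and 122 CPM in TGFb_TFA, with the extremes in TGFb 2 and TGFb_TFA 3 (log2 fold change 1.32, SE 0.64, not called). Without TGFb_TFA 3 the value was 0.41.

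DNAJC25-GNG10 (chromosome 9), from a chaperone gene into one for a G-protein gamma subunit, was among the steadiest rows. It was 21.4, 25.3 and 20.2 CPM in TGFb and 20.6, 22.4 and 28.1 CPM in TGFb_TFA (0.09, SE 0.17), with a value of -0.05 without TGFb_TFA 3. LY6G6F-LY6G6D (chromosome 6), a join of surface proteins of the LY6 family, was 8.59, 10.2 and 6.18 CPM and 5.79, 5.23 and 9.74 CPM (-0.27, SE 0.29), with a value of -0.60 without TGFb_TFA 3. There the upstream partner LY6G6F was at 0.13 CPM or less in all libraries. TMED7-TICAM2 (chromosome 5), from a cargo receptor gene into an adaptor of Toll-like receptor 4, was 26.1, 24.4 and 18.9 CPM and 17.6, 24.0 and 20.2 CPM (-0.17, SE 0.18). TICAM2 was listed at 0 in TGFb 1 and TGFb 2, where the readthrough row had its highest 2 values. None of these 3 rows was called.

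Values of the readthrough rows were also compared between libraries of the same group. The SD of log2(CPM + 0.5) within groups had a median of 0.54 over the 76 tested rows, 0.26 over partner rows, 0.18 over summed loci and 0.25 over all tested genes. In each of 7 classes of mean CPM the readthrough rows' median exceeded that of all genes, from 0.37 against 0.27 below 0.5 CPM (17 rows) to 0.74 against 0.21 at 16 CPM and over (12 rows). Without TGFb_TFA 3 the medians were 0.53 for readthrough rows, 0.19 for partners, 0.13 for sums and 0.19 for all tested genes. These medians are descriptions, with no test, and partners and sums were not matched to the readthrough rows for level. The widest row was BLOC1S5-TXNDC5 (3.28) and the narrowest was ZNF670-ZNF695 (0.17).

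**Figure D4:**
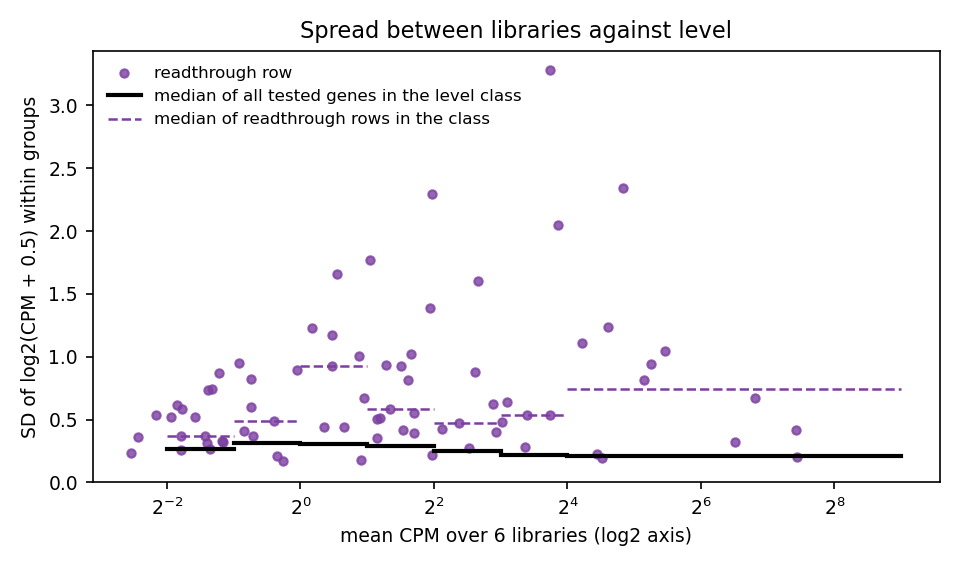
Within-group SD of log2(CPM + 0.5) against mean CPM for the 76 tested readthrough rows, with solid lines at the median of all tested genes and dashed lines at the median of readthrough rows in each class of level. The dashed line lies above the solid one in each of the 7 classes.

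Some rows were listed at 0 in one library and at 100 estimated counts or more in another. This held for 11 of the 76 rows (14.5%), 3 of 181 partner rows, 0 of 100 sums and 0.668% of all tested genes. Level was not matched here: the median mean CPM was 2.26 for readthrough rows, 18.5 for partners and 8.75 for all tested genes. The part of level in these shares was not tested. A sum can be at 0 only where the readthrough row and all its partners are, so nothing is read from the 0 of 100. Without TGFb_TFA 3 it held for 8 rows (10.5%) and 0.558% of all tested genes. The following 3 were chosen after their values were seen. BLOC1S5-TXNDC5 (ENSG00000259040, chromosome 6, nonsense-mediated decay type), a join of a lysosome-related organelle gene and a protein disulfide isomerase gene, had 0, 567 and 3163 counts in TGFb and 0, 1490 and 0 in TGFb_TFA. In CPM TXNDC5 was 291, 318 and 256 in TGFb and 299, 270 and 283 in TGFb_TFA. TXNDC5 was lowest in TGFb 3, where the readthrough row was highest. However, it was highest in TGFb 2, where the row had 567 counts, and not where the row was at 0. Within groups the 2 rows deviated in opposite directions in 4 of 6 libraries. The sum, which includes EEF1E1-BLOC1S5 and its partners, was 445 to 555 CPM.

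HNRNPUL2-BSCL2 (chromosome 11, nonsense-mediated decay type) runs from an RNA-binding protein gene into that of seipin, which shapes lipid droplets. It had 910, 1283 and 1585 counts in TGFb and 1607, 291 and 0 in TGFb_TFA, while the sum was 140.1 to 171 CPM. ISY1-RAB43 (chromosome 3, protein coding) runs from a splicing factor gene into a gene for a small GTPase. It had 499, 405 and 725 counts in TGFb and 254, 607 and 0 in TGFb_TFA, with a sum of 69.9 to 94.2 CPM. In both rows TGFb_TFA 3 was the only library at 0. RAB43 was 2.61, 3.93 and 6.21 CPM in TGFb and 7.72, 7.04 and 8.50 CPM in TGFb_TFA (log2 fold change 0.87, SE 0.31, not called).

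**Figure D5:**
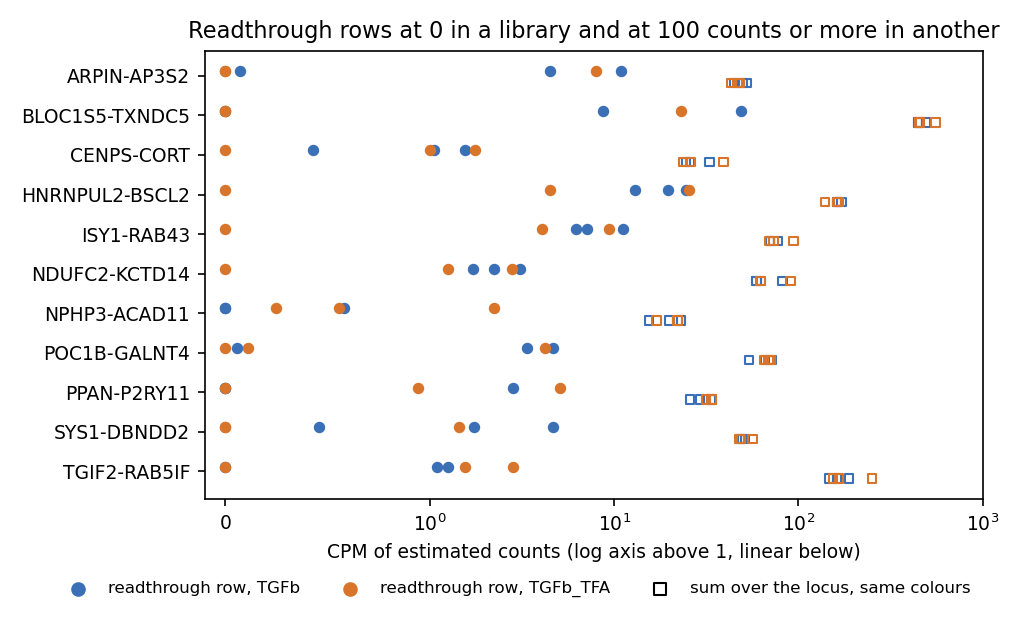
CPM of the 11 tested readthrough rows that were at 0 in one library and at 100 counts or more in another (filled points) and of their locus sums (open squares), by library, on a log axis above 1 CPM. Points spread from 0 to as much as 48.9 CPM. The squares lie at higher levels, where a log axis narrows distances. Those of BLOC1S5-TXNDC5 run from 445 to 555 CPM and those of TGIF2-RAB5IF from 146 to 250 CPM. A row that holds a small share of its locus can move the sum little, so nothing is read from this contrast.

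The filter on low counts itself takes out rows at 0 in most libraries, so the rows that did not pass it are not compared with the others. Of the 28, 11 were listed at 0 in 5 libraries. The 5 with the highest mean FPKM were HSPE1-MOB4, TMEM189-UBE2V1, ARL2-SNX15, BIVM-ERCC5 and RAB4B-EGLN2. HSPE1-MOB4 (ENSG00000270757, chromosome 2), which starts at a mitochondrial chaperonin gene and is protein coding, had 2002 counts in TGFb_TFA 3 and 0 in the other 5 libraries. TMEM189-UBE2V1 (chromosome 20), which ends in a ubiquitin-conjugating enzyme variant, had 766 counts in TGFb 2, 379 in TGFb_TFA 2 and 0 elsewhere. BIVM-ERCC5 (chromosome 13), which ends in a DNA repair endonuclease, had 1068 counts in TGFb 1 and 0 elsewhere.

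ARL2-SNX15 (chromosome 11) had 560 counts in TGFb 1, 9 in TGFb 2 and 0 in the other libraries. SNX15, a sorting nexin gene, was listed at 0 in TGFb 1 only, and at 5.22 to 7.11 CPM in the other 5. RAB4B-EGLN2 (chromosome 19), which ends in an oxygen-sensing prolyl hydroxylase, had 240 counts in TGFb 1 and 4 or fewer elsewhere. Each of these 5 rows thus rests on 1 or 2 libraries, and no group difference can be read from them.

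Genes of the machinery that ends or checks transcripts showed no call. Of 21 cleavage and polyadenylation genes 21 were tested and 0 called, with 9 above and 12 below 0 and a median log2 fold change of -0.0036 beside 0.01 for all genes. The lowest unadjusted p-values were those of CSTF2, a subunit that binds downstream of the cleavage site (0.21, SE 0.12), the phosphatase SSU72 (0.15, SE 0.13) and the endonuclease CPSF3 (-0.13, SE 0.12). Of 25 termination and elongation genes 0 were called, with 6 above and 19 below 0 and a median of -0.09. PPP1R10 had -0.23 (SE 0.20), SUPT4H1 0.25 (SE 0.22) and SUPT5H -0.17 (SE 0.21), the last 2 being parts of the elongation factor DSIF. In FPKM, TGFb_TFA 3 was the lowest library for CPSF3 (23.4, others 30.5 to 32.4) and PPP1R10 (3.15, others 5.42 to 6.21). It was also the lowest for SUPT5H (3.11, others 4.66 to 6.36) and the highest for SUPT4H1 (222, others 142 to 169).

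Of 18 nonsense-mediated decay genes 0 were called, with 7 above and 11 below 0 and a median of -0.06. The endonuclease SMG6 had -0.30 (SE 0.17), MAGOH of the exon junction complex 0.35 (SE 0.25) and DHX34 0.18 (SE 0.16). Of 16 splicing factors of the 3' splice site and of U1, 0 were called, with 6 above and 10 below 0 and a median of -0.01. U2AF1, which reads the end of the intron, had 0.25 (SE 0.17), SF1, which binds the branch point, had -0.28 (SE 0.23), and HNRNPC had 0.24 (SE 0.21). In FPKM, TGFb_TFA 3 was the highest library for MAGOH (70.4, others 39.8 to 48.4) and HNRNPC (278, others 181 to 222). It was the lowest for SMG6 (0.51, others 0.79 to 0.96) and SF1 (5.56, others 9.17 to 13.6). In these 4 lists no gene passed an unadjusted p under 0.05 in edgeR, where 1.83% of all tested genes did.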

How the data were processed

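RNA of 6 libraries (3 TGFb, 3 TGFb_TFA) was measured, per the labels' protocols with poly(A) selection, dUTP strand marking and unique molecular identifiers. GRCh38, StringTie 1.3.4d, HISAT2 2.0.4 and cutadapt 1.9 are listed in the submitters' processing notes without roles. In the sources used here, the annotation release, strand setting and use of the identifiers are not given. The deposited table holds an estimated count per gene and library, as whole numbers, and FPKM values made by the authors. A value of 4 is more frequent than 3 or 5 in the estimated counts, so they may derive from coverage, and totals (60361756 to 68745953) may overstate fragments. Depth was similar in all libraries.

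The members, gene lists and tests were chosen with earlier results of these data known. Counts were fitted in edgeR 4.0.16 (R 4.3.3): filterByExpr, TMM, quasi-likelihood F test (2-sided) with group as the only term, Benjamini-Hochberg adjustment over 18265 genes, threshold 0.05, and again with each locus summed (18108 rows). Standard errors were the log2 fold change over the root of F. Ratios of overlapping same-strand rows were tested in limma 3.58.1 on log2 ratios of CPM + 0.5 over 1426 pairs. Shares were compared by exact permutation. Exons, junctions and promoters came from GENCODE 29 and RefSeq. The edgeR and ratio fits were tested on simulated counts drawn separately for each gene. These held no overlapping rows that share reads and no summed loci, so they say nothing on how reads were split.

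Named rows were FAM47E-STBD1, the 10 tested rows of lowest unadjusted p, the 10 of highest mean FPKM, up to 10 with non-overlapping shares, their partners, 3 genes per list and 5 untested rows of highest FPKM. Alternatives were DESeq2 1.42.0 and its size factors, no filter or a mean CPM of at least 2, limma-trend on log2(FPKM + 0.1, 0.5 or 1) at a mean FPKM of at least 0.5, counts divided by 4, other pseudocounts, a replicate block, and leaving out libraries. Spread and zeros without TGFb_TFA 3 were added after seeing the data.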

Additional observations from a re-analysis of the deposited data

How the results depend on the processing

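No readthrough row, no summed locus and no pair of a readthrough row and a partner was called under any alternative. Of all tested genes, STBD1 and CYP1A1 were called (2 genes), 15 with DESeq2, 1 with the replicate block, and 1 to 3 on leaving out each library. Same-numbered libraries did not deviate together (r of 0.11, -0.33 and -0.34), so the replicate number was not taken as a pairing. Overlapping pairs with a changed ratio numbered 0, or 0 to 1 on leaving out each library (IQCJ-SCHIP1 with SCHIP1, without TGFb_TFA 3; IQCJ had no row of its own, so this is no member) and 2 without TGFb 1 and TGFb_TFA 3 (AL121900 with SMIM26 and with DTD1). The median log2 fold change of the readthrough rows (0.066) was -0.10, -0.13 and -0.085 in limma-trend on FPKM with pseudocounts of 0.5, 0.1 and 1, -0.098 to 0.14 on leaving out each library, and -0.22 without TGFb 1 and TGFb_TFA 3. The median spread of 0.54 was 0.77 and 0.43 with pseudocounts of 0.1 and 1 CPM.

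Among 335 alternative values of 22 named rows and sums, 16 changed sign, none of them a called value, and 15 of the 22 had no such change. The FAM47E-STBD1 sum was -0.020, -0.021 and -0.019 in the FPKM fits. On leaving out each library, the log2 fold change ran from -1.001 (without TGFb_TFA 1) to 2.86 for UBE2F-SCLY, from -0.22 (without TGFb_TFA 3) to 0.33 for NME1-NME2, from -0.086 (without TGFb_TFA 3) to 0.17 for RPL17-C18orf32, from -0.78 to 0.43 for RPL36A-HNRNPH2, from -0.054 (without TGFb_TFA 3) to 0.19 for DNAJC25-GNG10, and from -0.18 (without TGFb 3) to 0.85 for RNASEK-C17orf49. Without TGFb 1 and TGFb_TFA 3 together it was -0.26 for NME1-NME2, -0.077 for RPL17-C18orf32, 0.27 for RPL36A-HNRNPH2 and -0.099 for DNAJC25-GNG10. The cause was not tested.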
